A study of Mus musculus with 8 samples.

Results

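The fibroblast growth factors (FGFs) examined here are the ligands Fgf4, Fgf5, Fgf8, Fgf10 and Fgf15 and the receptors Fgfr1, Fgfr2, Fgfr3 and Fgfr4, in mouse cells. They were taken as all probe sets to which the platform annotation gives one of these 9 symbols alone, which made 22 of 45037 probe sets that are no hybridisation control. Fgfr4 had 5 probe sets, Fgf4 had 4, Fgfr1 and Fgfr2 had 3 each, Fgf5 and Fgfr3 had 2 each, and Fgf8, Fgf10 and Fgf15 had 1 each. The series compared 3 kinds of culture on 8 Affymetrix arrays. EB_PSC (2 arrays) are embryoid bodies, aggregates in which parthenogenetic stem cells of strain C57BL/6 differentiated over 15 days. PSC (3 arrays) are the undifferentiated parthenogenetic stem cells, C57BL/6 too, taken on day 6 from blastocysts of oocytes activated with strontium chloride, and they hold maternal genomes only. ESC (3 arrays) are the R1 line of embryonic stem cells, kept with leukemia inhibitory factor (LIF) on a layer of mouse embryonic fibroblasts. Feeder use is named for ESC alone, and R1 is a single line. No label says whether the arrays of one group stand for separate cultures. The p-values therefore rest on the scatter among these arrays, part or all of which may be technical.

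FGFs are secreted proteins that bind receptor tyrosine kinases together with heparan sulfate chains on the cell surface. The active receptor recruits adaptors such as Frs2 and Grb2, and the signal passes through Ras, Raf and Mek to the kinase Erk, whose targets include the Ets factors Etv4 and Etv5 and the feedback inhibitors of the Sprouty, Spred and Dusp families. In the mouse blastocyst Fgf4 comes from the epiblast, where it moves pluripotent cells out of the naive state and directs neighbouring cells to primitive endoderm. Fgf5 is switched on later, in the epiblast after implantation, and is widely used as a marker of it.

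All values are RMA values on the log2 scale, in which 1 unit is a doubling of signal. Each probe set has its own response, so levels of different genes were not compared. Within a gene, the brightest probe set was the one with the highest mean over all arrays. A probe set was called dim in a group when its mean lay below 5.435, the median of all values. Below it RMA compresses differences, so no fold is given there. Of the 22 probe sets, 8 were dim in EB_PSC, 9 in PSC, 11 in ESC and 6 in every group. Differences were tested with limma over all 45037 probe sets, with Benjamini-Hochberg adjustment, and a probe set passed at an adjusted p under 0.05. The comparisons of EB_PSC with PSC and of PSC with ESC share the PSC arrays.

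Marker levels were set against the labels. All 10 markers of pluripotent cells, such as Pou5f1 and Nanog, were above the dim limit on average in each group, and their mean over the list was 9.34 to 9.50 in EB_PSC, 11.42 to 11.58 in PSC and 11.80 to 11.99 in ESC arrays. Heart muscle markers averaged 8.26 to 8.96 in EB_PSC, 4.91 to 5.03 in PSC and 4.85 to 5.15 in ESC arrays. Between arrays of a group, Pearson's r across probe sets was at least 0.991, and between groups 0.925 to 0.986; probe sets are no independent replicates. The 3′ minus 5′ signal of the control transcript Gapdh, a measure of RNA integrity, was -0.09 and -0.06 in EB_PSC, -0.06 to 0.00 in PSC and 0.08 to 0.17 in ESC. For Actb it was 1.09 and 1.17 in EB_PSC, 1.04 to 1.54 in PSC and 0.69 to 1.13 in ESC. The part of RNA integrity in the differences reported was not tested.

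The 2 ligand genes with the widest range over the arrays were Fgf5 and Fgf4, and they moved in opposite directions, so the stretch of 250 bases before the annotated start of each is shown. The sequences are from RefSeq, build GRCm38.p6, written 5′ to 3′ on the strand of the gene. Capitals mark matches to the letters searched for on both strands, namely the TATA box (TATAAA), the GC box (GGGCGG), the CCAAT box (CCAAT), the octamer (ATGCAAAT) and the Ets core (CCGGAA). No match overlaps another here.
Fgf4, chr7:144861136-144861385, plus strand: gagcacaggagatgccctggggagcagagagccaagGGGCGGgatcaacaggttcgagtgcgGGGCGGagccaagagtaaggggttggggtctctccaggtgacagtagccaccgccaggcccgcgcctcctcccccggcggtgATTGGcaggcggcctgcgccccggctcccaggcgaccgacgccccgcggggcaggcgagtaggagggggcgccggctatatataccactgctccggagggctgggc
Fgf5, chr5:98253934-98254183, plus strand: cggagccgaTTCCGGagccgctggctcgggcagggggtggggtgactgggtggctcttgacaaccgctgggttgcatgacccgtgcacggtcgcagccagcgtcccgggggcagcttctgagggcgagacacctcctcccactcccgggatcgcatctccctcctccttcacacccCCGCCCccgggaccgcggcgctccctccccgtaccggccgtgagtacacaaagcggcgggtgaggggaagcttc
The Fgf4 stretch held 2 GC boxes and 1 CCAAT box, and the Fgf5 stretch 1 GC box and 1 Ets core. Over 32851 such stretches of the same length, 32.7% held a GC box, 33.8% a CCAAT box, 12% the Ets core, 12.4% a TATA box and 1.6% the octamer. Both stretches are rich in CpG, with 21 for Fgf4 and 24 for Fgf5 against a median of 6. Only exact letters were counted, so a run such as tatatata near the end of the Fgf4 stretch is not marked. These matches describe the letters and say nothing of binding.

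The first comparison followed the 9 genes from PSC into embryoid bodies. Fgf4 fell and Fgf5 rose, each on every probe set it has. Fgf4 was 7.22-fold lower in embryoid bodies on its brightest probe set, and Fgf5 gained 4.06 ± 0.22 log2 units (SE). Fgf8 rose, Fgfr2 rose on 2 of 3 probe sets, and Fgfr3 and Fgfr4 each fell on 1. For Fgf10, Fgf15 and Fgfr1 no probe set passed the test. Over all members, 5 probe sets were higher and 6 lower, together 11 of 22, whereas 34.5% of all probe sets passed in this comparison, 15.6% higher and 18.9% lower. The 4 probe sets of Fgf4 count a single gene 4 times. With each gene at its brightest probe set, 3 of 9 genes were higher (Fgf5, Fgf8 and Fgfr2) and 1 lower (Fgf4), against 41.8% of all genes, so the share that passed was near the background and the results lie in the sizes for single genes.

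**Figure D1:**
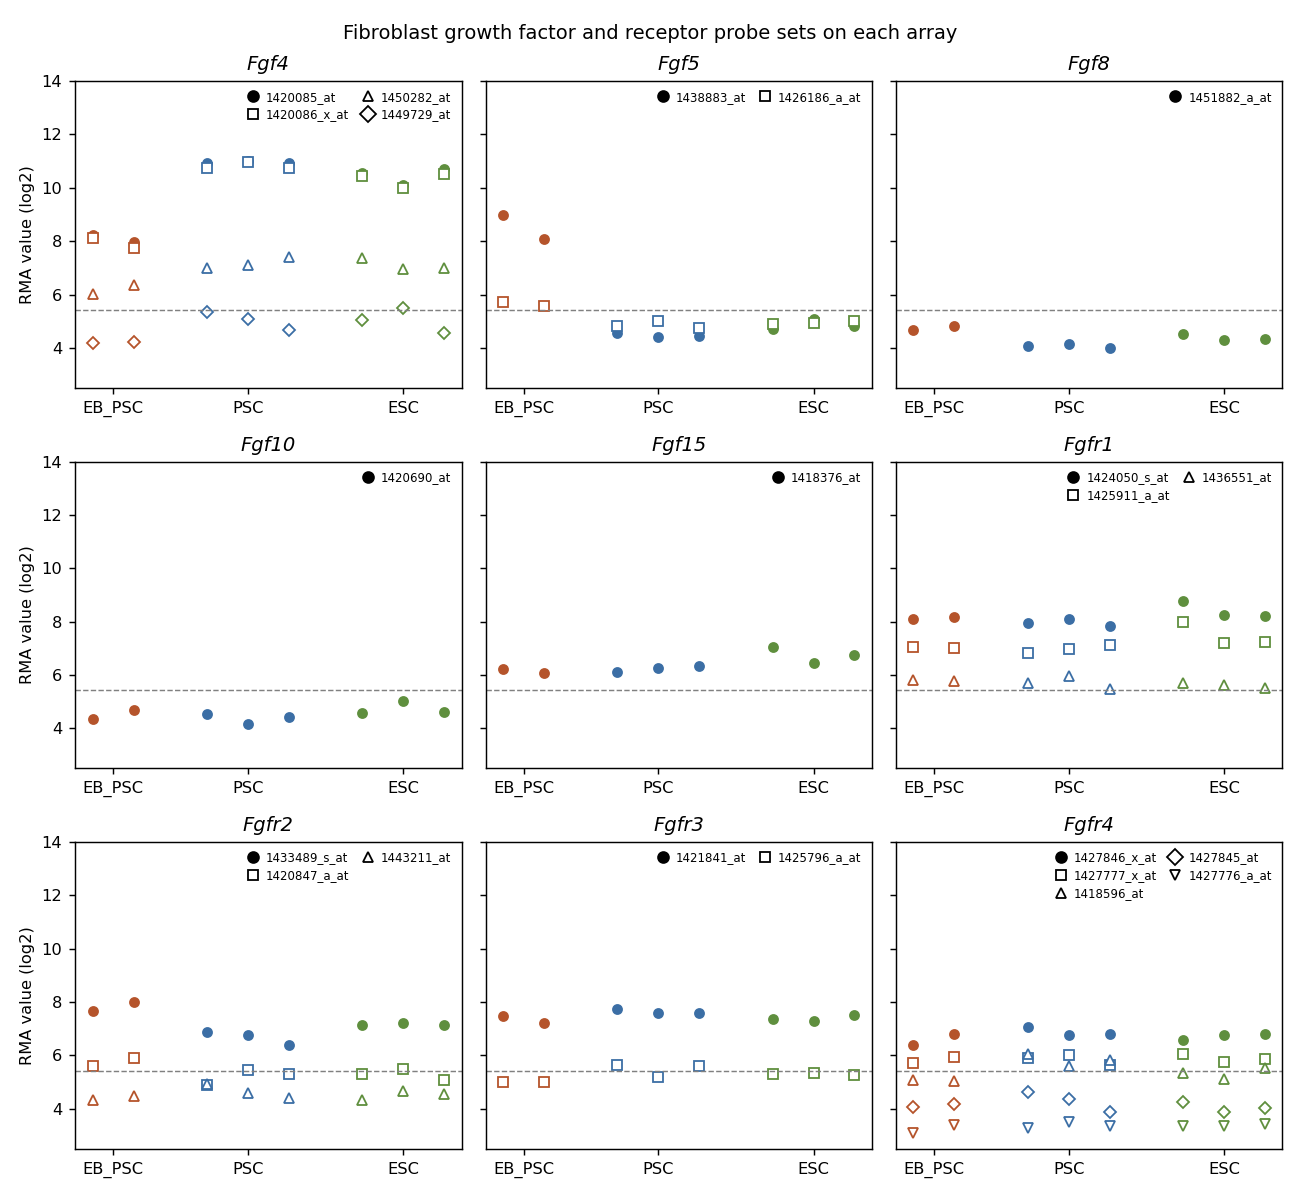
Each panel plots the RMA value (log2) of every probe set of a gene on each array, with EB_PSC, PSC and ESC from left to right and a point for each array. Filled circles are the brightest probe set of the gene and the dashed line is the dim limit of 5.435. Fgf4 is at 8.25 and 7.97 in EB_PSC and at 10.92 to 11.02 in PSC, and Fgf5 is at 8.99 and 8.07 in EB_PSC and at 4.42 to 4.55 in PSC.

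On probe set 1420085_at, Fgf4 had 8.25 and 7.97 in the EB_PSC arrays, against 10.92, 11.02 and 10.93 in PSC. The groups lay far apart, and the fall was 2.85 ± 0.17 log2 units (limma adjusted p = 5.67e-08; 95% interval -3.22 to -2.48). Probe set 1420086_x_at ran with it, at 8.11 and 7.76 in EB_PSC and 10.76, 10.97 and 10.76 in PSC, so the pair is not independent evidence. The other 2 probe sets of Fgf4 had lower signal and smaller changes. On 1450282_at the values were 6.01 and 6.35 in EB_PSC and 6.98, 7.12 and 7.42 in PSC, 1.99-fold lower in EB_PSC (0.000632). On 1449729_at, dim in both groups, they were 4.19 and 4.23 in EB_PSC and 5.33, 5.07 and 4.67 in PSC, a difference of -0.81 ± 0.24 (0.0183). This last call was lost without PSC 1, PSC 2, EB_PSC 1 or EB_PSC 2 (adjusted p 0.0571 to 0.0878; 0.000785 to 0.0878 over all alternatives). The average of the 4 probe sets gave a fall of 1.89. Fgf4 signal in embryoid bodies stayed above the dim limit. All 10 pluripotency markers were lower in the same comparison, with a median of -2.03, while 23.7% of all genes were lower. In bulk RNA, fewer cells of a type and less RNA per cell cannot be told apart.

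Fgf5 had 8.99 and 8.07 in EB_PSC on probe set 1438883_at, against 4.55, 4.42 and 4.45 in PSC. The PSC arrays lay close together below the dim limit, and the embryoid body arrays differed from each other by more than the whole spread of PSC. The rise was 4.06 log2 units (adjusted p = 2.27e-08; 95% interval 3.58 to 4.53), and no fold is given because PSC were dim. On the second probe set, 1426186_a_at, Fgf5 stood at 5.71 and 5.59 in EB_PSC and at 4.82, 5.02 and 4.75 in PSC, a rise of 0.79 ± 0.13 (0.000351), and the average of both probe sets rose by 2.42. Of 7 other genes of the primed, later epiblast, 4 rose and 0 fell in the same arrays, with a median of 1.08. They were Fst (4.29 ± 0.20), Sall2 (1.37 ± 0.16), Otx2 (1.11 ± 0.16) and Pou3f1 (1.08 ± 0.15). Among markers of other tissues, 11 of 14 fibroblast genes were higher and 1 lower, 8 of 9 heart muscle genes and 6 of 10 endoderm and liver genes were higher and 0 lower, and 5 of 6 endothelial genes were higher and 1 lower. Of 8 neural genes 2 were higher and 3 lower (median -0.23), and of 6 cartilage genes 3 were higher and 1 lower (median 0.10). Beside all these lists, 18.1% of all genes were higher and 23.7% lower. Which cells of the embryoid bodies carry Fgf5 was not tested.

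Fgf8, which patterns the gastrulating embryo, the limb and the midbrain boundary, was dim on every array. It had 4.67 and 4.81 in EB_PSC, against 4.08, 4.13 and 3.99 in PSC, without overlap, and rose by 0.67 ± 0.13 (adjusted p = 0.00109). Fgf10, the mesenchymal ligand of lung and limb outgrowth, was dim as well, at 4.34 and 4.68 in EB_PSC and 4.54, 4.17 and 4.44 in PSC. Those values overlapped and the difference of 0.13 ± 0.17 did not pass (0.63; 95% interval -0.25 to 0.51). Fgf15, the mouse counterpart of human FGF19 and in the adult gut a hormone that restrains bile acid synthesis, had 6.22 and 6.08 in EB_PSC and 6.12, 6.28 and 6.33 in PSC. Its difference of -0.09 ± 0.17 did not pass either (0.718), with an interval from -0.46 to 0.27.

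Among the receptors, Fgfr2, which in epithelia answers Fgf10 through a splice form of its own, changed most. On 1433489_s_at it had 7.66 and 8.02 in EB_PSC, against 6.88, 6.75 and 6.41 in PSC, with every embryoid body array above every PSC array. The rise was 1.16 ± 0.16 log2 units, or 2.24-fold (adjusted p = 9.12e-05). On 1420847_a_at it had 5.59 and 5.90 in EB_PSC and 4.88, 5.45 and 5.29 in PSC, a rise of 0.54 ± 0.18 (0.0375). That call was lost without PSC 1, PSC 3 or EB_PSC 2 (0.0586 to 0.251; 0.017 to 0.251 over all alternatives). The third probe set, 1443211_at, was dim in both groups and differed by -0.24 ± 0.16 (0.299). The average over the 3 probe sets rose by 0.49 (0.00614). Epithelial markers went both ways in the same arrays, 5 of 11 higher and 3 lower, with a median of -0.00. The shares over all genes were 18.1% higher and 23.7% lower. Krt8 (5.11), Krt18 (4.79), Dsp (4.47), Krt19 (3.23) and Cldn6 (0.82) rose. Cldn4 (-1.49), Grhl2 (-0.62) and Epcam (-0.40) fell, and Cdh1 (-0.11), Krt5 (-0.00) and Krt14 (-0.25) did not pass.

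Fgfr1, the main receptor of the epiblast, showed no difference past the test on any probe set. The brightest, 1424050_s_at, had 8.09 and 8.17 in EB_PSC and 7.94, 8.09 and 7.83 in PSC, and the difference was 0.18 ± 0.17 (adjusted p = 0.468; 95% interval -0.19 to 0.54). The other 2 differed by 0.05 (interval -0.40 to 0.50) and 0.08 (interval -0.24 to 0.40). None of these intervals reaches the 1.16 units of the brightest Fgfr2 probe set. Those that end at 0.54 and 0.50 do include 0.49, the rise of Fgfr2 as the average of its probe sets.

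Fgfr3, which restrains bone growth, had 7.48 and 7.22 in EB_PSC and 7.74, 7.60 and 7.60 in PSC on 1421841_at, which did not overlap. The difference of -0.29 ± 0.13 missed the threshold (adjusted p = 0.113), and passed as the average of both probe sets (-0.38, 0.0148). On 1425796_a_at, at 5.01 and 5.01 in EB_PSC against 5.66, 5.20 and 5.59 in PSC, the fall was 0.47 ± 0.15 (0.0248). It was lost without PSC 1, PSC 3, EB_PSC 1 or EB_PSC 2 (0.0794 to 0.0965), with cyclic loess (0.0684) and with the replicate number as a block (0.0536), against 0.00411 to 0.0965 over all alternatives.

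Fgfr4, the receptor through which liver cells respond to Fgf15, fell on 1 of 5 probe sets. On 1418596_at it had 5.07 and 5.05 in EB_PSC, against 6.05, 5.62 and 5.83 in PSC, a fall of 0.77 ± 0.16 (adjusted p = 0.0019). The other 4 probe sets differed by -0.27 to -0.03 and none passed the test. The brightest of them, 1427846_x_at, had overlapping values of 6.39 and 6.82 in EB_PSC and 7.05, 6.76 and 6.81 in PSC. The average of the 5 differed by -0.28 (0.077).

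**Figure D2:**
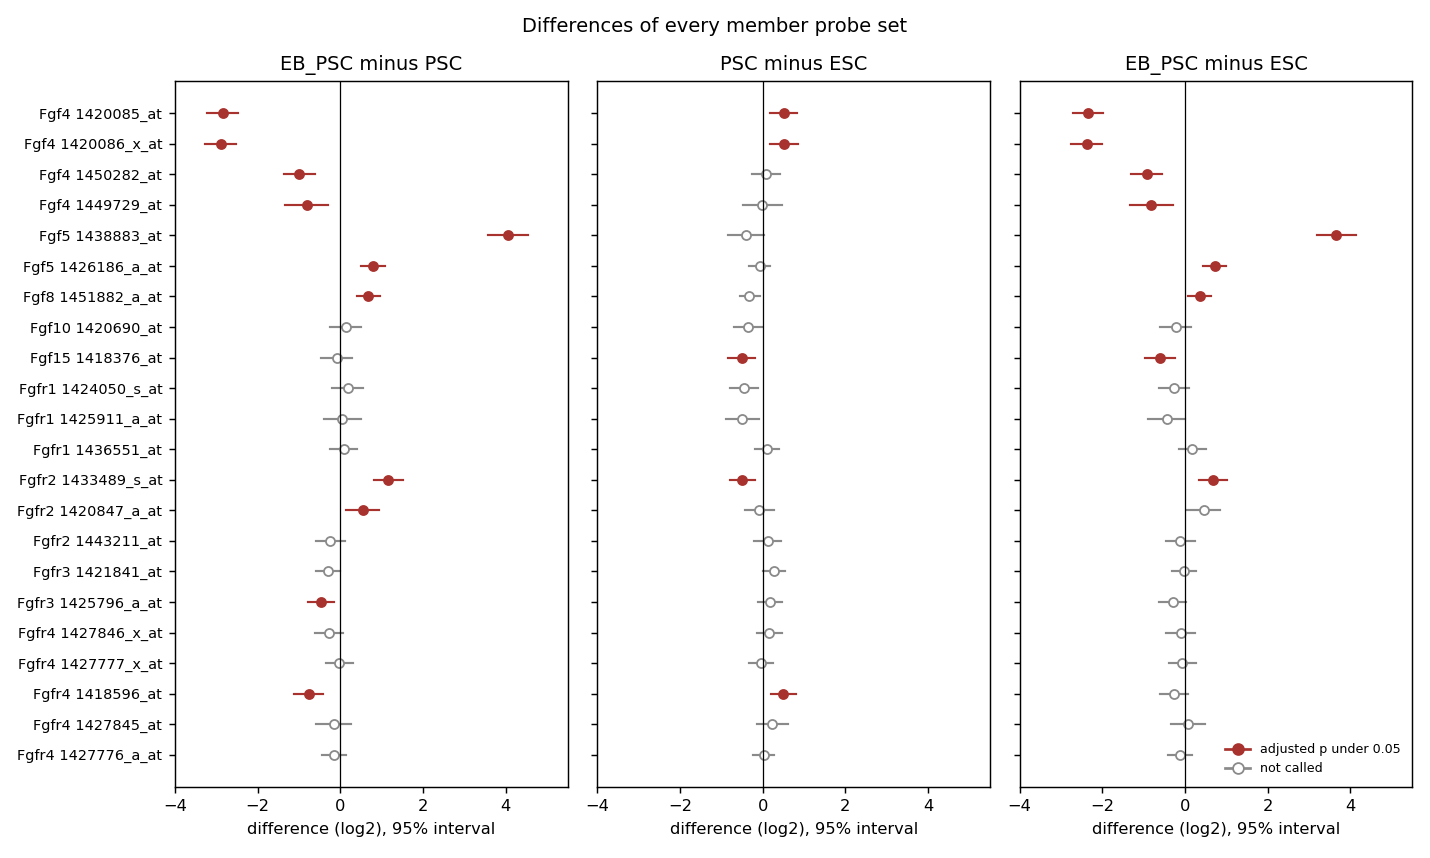
Points are the differences (log2) of the 22 probe sets in 3 comparisons and lines their 95% intervals from the limma fit. Filled red points have an adjusted p under 0.05. Between EB_PSC and PSC the differences run from -2.89 for Fgf4 to 4.06 for Fgf5, and between PSC and ESC all lie between -0.51 and 0.51.

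The partners of the ligands on the cell surface moved with differentiation. The list holds 21 genes for co-receptors, proteoglycans and FGF-binding proteins. Embryoid bodies had more signal for 13 and less for 1, and 7 did not pass, with a median of 0.85. Over all 18193 genes, each taken at its brightest probe set, 41.8% passed, 18.1% higher and 23.7% lower, and the median was -0.09. Cdh2, the N-cadherin that binds FGF receptors, had 10.04 and 9.59 in EB_PSC and 5.99, 5.56 and 6.02 in PSC and was 15.5-fold higher (limma adjusted p = 5.01e-08). Flrt3, a membrane protein that binds Fgfr1, had 9.33 and 9.06 in EB_PSC and 5.54, 5.55 and 5.67 in PSC and was 12.2-fold higher (2.46e-09). Ncam1, a neural cell adhesion molecule, rose by 2.68 ± 0.15, but by only 0.61 as the average of its probe sets. The glypican genes Gpc1, Gpc3, Gpc4 and Gpc6 were also higher, the last with unlike values of 7.35 and 6.13 in EB_PSC. Gpc2 (0.27 ± 0.13, adjusted p = 0.135) and Gpc5 (-0.08 ± 0.15, 0.732), dim in both groups, did not pass. The proteoglycan Sdc4 was the gene that fell, by 1.36 ± 0.23 (0.000561; by 0.44 as the average of its probe sets). The summed log2 level of the 14 fibroblast markers was 113.5 to 115.6 in EB_PSC and 74.9 to 77.4 in PSC arrays, with 1 marker dim in EB_PSC (Fap) and 7 in PSC, and its part in the changes of partners, enzymes and receptors was not tested.

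Among 17 enzymes that build or trim heparan sulfate, 5 rose in EB_PSC, 1 fell and 11 missed the threshold (median 0.06). Beside them, 41.8% of all genes passed. Hs6st2, a 6-O-sulfotransferase, had 10.15 and 9.77 in EB_PSC and 6.76, 6.66 and 6.84 in PSC and was 9.24-fold higher (adjusted p = 3.76e-09), or rose by 1.66 as the average of its probe sets. Extl2, a glycosyltransferase, was 2.66-fold higher (1.55e-05), or rose by 1.03 as the average of its probe sets. Sulf1, which removes 6-O-sulfates, was 6.44-fold higher (1e-08), or rose by 1.92 as the average. In EB_PSC Sulf1 was level with ESC, with a difference of -0.00. Sulf2, its close relative, differed by -0.45 ± 0.14 (0.0231), a fall that was lost without PSC 1, PSC 2, EB_PSC 1 or EB_PSC 2 (0.062 to 0.0916), with cyclic loess (0.115) and with the replicate block (0.0518), against 0.000702 to 0.115 over all alternatives.

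Of the other 17 ligands 1 rose, 2 fell and 14 missed the threshold (median -0.17), beside 41.8% of all genes that passed. All of these 14 but Fgf9 and Fgf22 were dim in both groups, so a change in them may not be measurable here. Fgf13, an intracellular relative that does not act through the receptors, rose by 1.04 ± 0.16 (adjusted p = 0.000288; 0.68 as the average of its probe sets). Fgf17, of the Fgf8 subfamily, had 5.03 and 5.63 in EB_PSC and 6.48, 6.70 and 6.93 in PSC and fell by 1.37 ± 0.21 (0.000184). Fgf21, a liver hormone, fell by 0.44 ± 0.13 on dim signal (0.0227), a call lost without any of the 3 PSC arrays, without EB_PSC 1 (0.0509 to 0.236) and with cyclic loess (0.0522), against 0.00935 to 0.236 over all alternatives. Fgf2, a ligand used in culture of primed cells, was dim throughout and differed by -0.25 ± 0.18 (0.337).

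Inside the cell, 17 signalling genes were measured, of which 7 rose in EB_PSC, 4 fell and 6 missed the threshold (median -0.10). Over all genes 41.8% passed, 18.1% higher and 23.7% lower. The adaptor gene Gab2 rose by 3.32 ± 0.18 (adjusted p = 2.03e-08; 1.12 as the average of its probe sets), while its relative Gab1 had 10.26 and 9.96 in EB_PSC and 11.72, 11.63 and 11.66 in PSC and fell by 1.56 ± 0.14 (1.99e-06). The Ras exchange factor Sos2 rose by 1.95 ± 0.20 (7.63e-06) and the PI3-kinase subunit Pik3r1 by 1.33 ± 0.14 (7.68e-06; 0.67 as the average of its probe sets). Map2k1, which encodes Mek1, fell by 0.94 ± 0.14 (0.000164) and the adaptor Crkl fell by 0.63 ± 0.13 (0.00209).

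Targets and feedback inhibitors of Erk were split, with 4 of 15 that rose, 6 that fell and 5 that missed the threshold (median 0.03). Of all genes, 18.1% rose and 23.7% fell. The phosphatase gene Dusp4 was 4.67-fold higher (adjusted p = 3.71e-07), Myc 3.31-fold (4.68e-05) and Dusp6 2.22-fold (1.39e-05), the last with 9.44 and 9.35 in EB_PSC and 8.11, 8.27 and 8.35 in PSC. In the other direction the immediate early genes Fos and Egr1 were 10.9-fold and 4.89-fold lower (4.5e-09 and 1.41e-07). Etv4 fell by 1.13 ± 0.21 (0.000924), Spry4 fell by 0.71 ± 0.13 (0.0011; by 1.11 as the average of its probe sets), and Etv5 fell by 0.92 ± 0.24 (0.0102), a call lost without EB_PSC 2 (-0.68, adjusted p = 0.121; 0.000153 to 0.121 over all alternatives). Spry2 differed by -0.04 ± 0.27 (0.925).

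**Figure D3:**
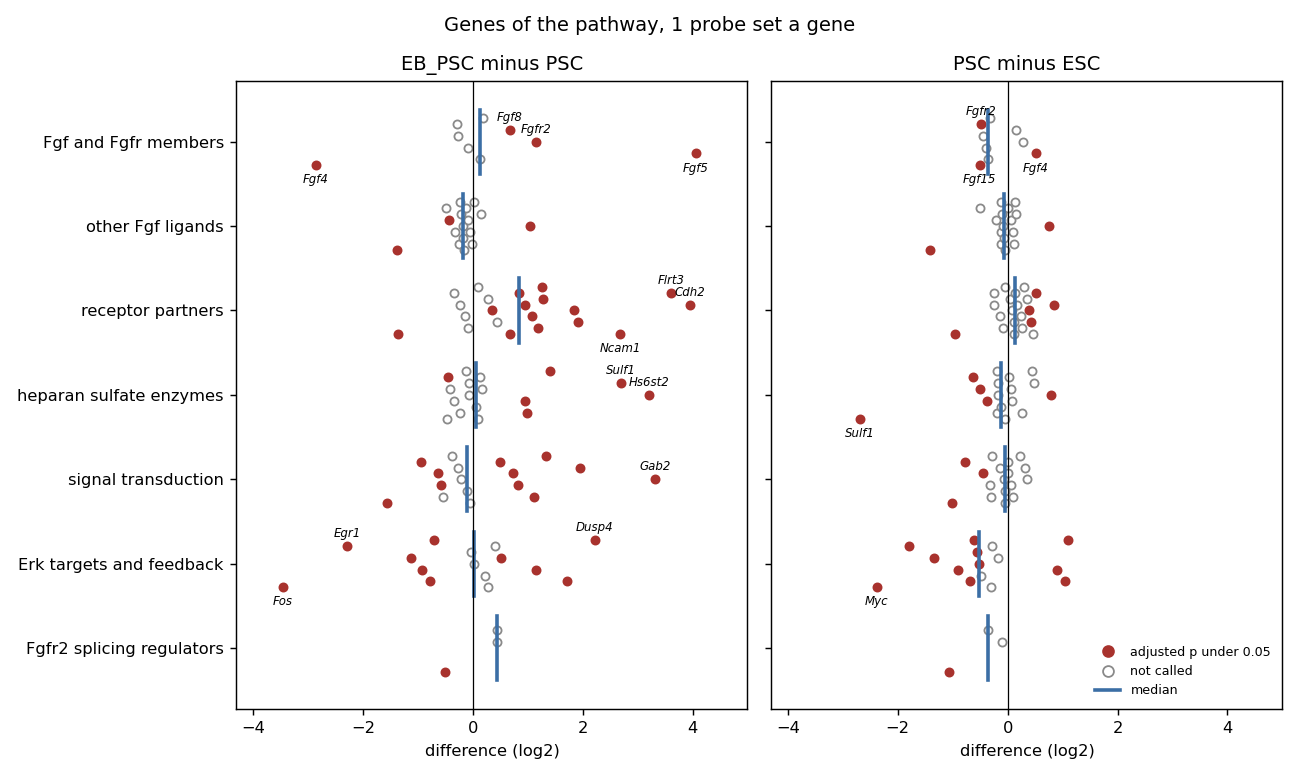
Each point is a gene at its brightest probe set, placed by its difference (log2) for EB_PSC minus PSC on the left and PSC minus ESC on the right, with 1 row per gene list. Red points have an adjusted p under 0.05 and the blue bar is the median of the list. The receptor partners have a median of 0.85 on the left and 0.14 on the right, and the Erk targets have 0.03 on the left and -0.52 on the right.

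The second comparison set undifferentiated PSC against ESC. The differences among the FGF genes were small. On their calling probe sets Fgf4 was 1.42-fold higher in PSC, Fgf15 was 1.42-fold lower, Fgfr2 was 1.4-fold lower and Fgfr4 was higher. For Fgf5, Fgf8, Fgf10, Fgfr1 and Fgfr3 no probe set passed. In all, 3 probe sets were higher and 2 lower, together 22.7% of 22, not far from the 15.6% of all probe sets, 7.07% higher and 8.55% lower. At the brightest probe sets 1 of 9 genes was higher and 2 lower, against 18.8% of all genes. Of these 5 calls 0 held when each array was left out in turn. Genome origin, cell line, feeder cells and strain cannot be told apart in this comparison.

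Fgf4 on 1420085_at had 10.92, 11.02 and 10.93 in PSC, against 10.55, 10.11 and 10.70 in ESC. The PSC arrays lay within 0.1 of each other and above all ESC arrays, of which ESC 2 was lowest. The difference was 0.51 ± 0.15 (limma adjusted p = 0.0395), and 1420086_x_at gave the same size (0.0437). Without PSC 1, PSC 2, PSC 3, ESC 1 or ESC 2 the first call was lost (0.0589 to 0.13, and a difference of 0.34 without ESC 2), as it was with array weights (0.0635) and with the average of the 4 probe sets (0.27, 0.0634), against 0.0101 to 0.13 over all alternatives. For 1420086_x_at it was lost without the same arrays (0.0539 to 0.162), with array weights (0.0508) and with the replicate block (0.0517). The 2 less bright probe sets of Fgf4 differed by 0.07 (interval -0.27 to 0.41) and -0.01 (interval -0.47 to 0.46).

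Fgf15 had 6.12, 6.28 and 6.33 in PSC, against 7.06, 6.44 and 6.76 in ESC. Every PSC array lay below every ESC array, with a gap of 0.11, and the fall was 0.51 ± 0.15 (adjusted p = 0.0368). It was lost without PSC 1, PSC 2, PSC 3, ESC 1 or ESC 3 (0.0622 to 0.142; 0.00607 to 0.142 over all alternatives). Fgf5 was dim in both groups, with 4.55, 4.42 and 4.45 in PSC and 4.70, 5.10 and 4.83 in ESC, and its difference of -0.40 ± 0.20 did not pass (0.207; 95% interval -0.83 to 0.02). Fgf8 differed by -0.32 ± 0.11 (0.0843; interval -0.56 to -0.07), passing with the repeated quantile normalization (0.0449), with cyclic loess (0.0463), with array weights (0.0486) and in the fit of gene averages (0.0405), in a range of 0.0405 to 0.26. Fgf10 differed by -0.36 ± 0.16 (0.161; interval -0.69 to -0.02), with dim signal in both groups.

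Fgfr2 on 1433489_s_at had 6.88, 6.75 and 6.41 in PSC, against 7.15, 7.21 and 7.15 in ESC, and fell by 0.49 ± 0.14 (adjusted p = 0.0348). The call was lost without PSC 2, PSC 3, ESC 1, ESC 2 or ESC 3 (0.0699 to 0.132), with the repeated quantile normalization (0.0728), with cyclic loess (0.0559) and with the average of the probe sets (-0.15, 0.386), against 0.0152 to 0.386 over all alternatives. Fgfr1 leaned the same way on 2 probe sets without passing, with 7.94, 8.09 and 7.83 in PSC and 8.76, 8.24 and 8.21 in ESC on 1424050_s_at, a difference of -0.45 ± 0.15 (0.0656). That probe set passed without ESC 2 (-0.53, 0.0454), with dim probe sets filtered away (0.0467) and with 1 probe set a gene (0.0481). The second, 1425911_a_at, differed by -0.49 ± 0.18 (0.101) and passed without ESC 2 (-0.62, 0.0449). ESC 1 had the highest Fgfr1 value on both.

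Fgfr4 on 1418596_at had 6.05, 5.62 and 5.83 in PSC, against 5.34, 5.12 and 5.52 in ESC, where it was dim, and was higher in PSC by 0.50 ± 0.14 (adjusted p = 0.0286). Without PSC 1, PSC 3, ESC 1 or ESC 2 this call was lost (0.0663 to 0.131; 0.0205 to 0.131 over all alternatives), and the other 4 probe sets of Fgfr4 differed by -0.04 to 0.23. Fgfr3 had 7.74, 7.60 and 7.60 in PSC and 7.35, 7.28 and 7.50 in ESC on 1421841_at, which do not overlap, and differed by 0.27 ± 0.12 (0.166; interval 0.01 to 0.53).

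Fibroblast markers, which cover the feeder layer, differed in the same arrays. Of 14 such genes 7 were lower in PSC and 0 higher, while 10.5% of all genes were lower and 8.21% higher. Their summed log2 level ran from 74.9 to 77.4 in PSC and from 84.5 to 89.1 in ESC arrays. Dim in PSC and in ESC were Fap, Lum, Twist1 and Twist2, while Pdgfrb, Postn and Prrx1 were dim in PSC alone of these 2 groups. The epithelial list had 6 of 11 genes down in PSC and 0 up, and its sum was 86.2 to 87.5 in PSC and 90.3 to 92.1 in ESC. Neither list shows which cells carry its genes, and the part of either list in the FGF and pathway differences was not tested.

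Among the 90 pathway genes with a probe set of their own, 9 were higher in PSC and 18 lower, while 8.21% of all genes were higher and 10.5% lower. The Erk targets and feedback genes accounted for 3 of the higher and 8 of the lower, with 4 of 15 that missed the threshold and a median of -0.52, against 0.01 over all genes. Myc was 5.2-fold lower (limma adjusted p = 9.57e-06). Etv5 had 8.45, 8.43 and 8.80 in PSC, against 10.82, 9.85 and 10.43 in ESC, and was 3.49-fold lower (0.000168). Etv4 was 2.53-fold lower (0.00044; -0.90 as the average of its probe sets, against -1.34) and Spry4 fell by 0.56 ± 0.12 (0.00724). Higher in PSC were Ier3 (1.10 ± 0.14), Fos (1.05 ± 0.14) and Dusp4 (0.89 ± 0.14). Dusp6 differed by -0.31 ± 0.11 (0.0843) and passed with array weights (0.0395) and in the fit of gene averages (0.0398), in a range of 0.0395 to 0.272. Spry2 differed by -0.48 ± 0.24 (0.22).

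Of the other ligands 1 rose in PSC, 1 fell and 15 missed the threshold, beside 18.8% of all genes that passed. Fgf17 had 6.48, 6.70 and 6.93 in PSC, against 8.41, 7.87 and 8.07 in ESC, and was 2.66-fold lower (adjusted p = 0.000285), a larger difference than that of any of the 9 members. Fgf13 was 1.68-fold higher (0.00432; 0.38 as the average of its probe sets, against 0.75). Fgf2 differed by 0.16 ± 0.17 (0.606).

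Of the 21 receptor partners 4 rose, 1 fell and 16 missed the threshold, beside 18.8% of all genes that passed. Sdc2 rose by 0.84 ± 0.13 (adjusted p = 0.00116; 0.52 as the average of its probe sets) and Gpc3 by 0.52 ± 0.11 (0.0064). Ncam1 was higher by 0.43 ± 0.13 (0.0463), which was lost without PSC 1, PSC 2 or any of the 3 ESC arrays (0.0653 to 0.184), with the trended prior (0.0513) and with the average of its probe sets (0.17, 0.211), against 0.0104 to 0.211 over all alternatives. Sdc4 fell by 0.96 ± 0.21 (0.00796) on its brightest probe set, while the average of its probe sets differed by 0.00 (0.996).

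Of the 17 heparan sulfate enzymes 1 rose, 4 fell and 12 missed the threshold, beside 18.8% of all genes that passed. Sulf1 had 5.95, 6.11 and 5.78 in PSC, against 8.68, 8.59 and 8.63 in ESC, and was 6.44-fold lower (adjusted p = 4.35e-08; -1.77 as the average of its probe sets, against -2.69). Ext1, a polymerase of the chain, fell by 0.63 ± 0.14 (0.00938; -0.27 as the average of its probe sets), a call lost without PSC 1 (0.0531, against 0.00147 to 0.0531 over all alternatives). Extl3 fell by 0.50 ± 0.15 (0.0352), which was lost without any of the 3 PSC arrays, ESC 1 or ESC 3 (0.057 to 0.135) and with both repeated scalings (0.0553 and 0.0516), against 0.00827 to 0.135 over all alternatives. Sulf2 was higher by 0.79 ± 0.12 (0.000976), but the average of its probe sets differed by -0.02 (0.921).

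Of the 17 signalling genes 3 fell and 14 missed the threshold of limma, a share near the 18.8% of all genes that passed. Those that fell were the PI3-kinase gene Pik3ca (-1.01 ± 0.11, adjusted p = 6.41e-05; -0.36 as the average of its probe sets), Map2k2, which encodes Mek2 (-0.78 ± 0.16, 0.00509; -0.47 as the average), and Nras (-0.45 ± 0.12, 0.0186; -0.28 and 0.0533 as the average). The Nras call was also lost with both repeated scalings (0.0622 and 0.051) and without PSC 2, PSC 3, ESC 1 or ESC 3 (0.0612 to 0.0792), against 0.003 to 0.0792 over all alternatives. Of the 3 regulators of Fgfr2 splicing, Esrp2, which favours the epithelial form, fell by 1.06 ± 0.18 in PSC (0.00175; -0.51 as the average of its probe sets). Between EB_PSC and PSC its relative Esrp1 fell by 0.51 ± 0.16 (0.0297), a call lost without PSC 2, PSC 3, EB_PSC 1 or EB_PSC 2 (0.0505 to 0.191), with cyclic loess (0.138) and with the replicate block (0.0794), against 0.0101 to 0.191 over all alternatives. Splice forms of Fgfr2 were not analysed here.

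The third comparison, of embryoid bodies with ESC, uses arrays already described and differs from the first in its partner line. Differentiation, genome origin, cell line, feeder cells and strain cannot be told apart in this comparison. In it 4 probe sets were higher and 5 lower, 40.9% of 22, against 35.9% of all probe sets, 16.4% higher and 19.5% lower, a share near the background. Fgf5 had 8.99 and 8.07 in EB_PSC, against 4.70, 5.10 and 4.83 in ESC, a rise of 3.65 ± 0.22 (limma adjusted p = 5.7e-08), or 2.18 as the average of its probe sets. Fgf4 was 5.08-fold lower in EB_PSC (3.03e-07) and fell on each of its 4 probe sets. The smallest fall, of 0.82 on 1449729_at (0.0164), was lost without EB_PSC 1 (0.0817), EB_PSC 2 (0.0683) and with array weights (0.1), against 0.00065 to 0.1 over all alternatives. Fgf15 had 6.22 and 6.08 in EB_PSC and 7.06, 6.44 and 6.76 in ESC and was 1.52-fold lower (0.0124; 0.0888 without EB_PSC 2, the highest of a range from 0.0015). Fgfr2 was 1.59-fold higher (0.00469; 0.0727 without EB_PSC 2, the highest of a range from 0.00125), a difference of 0.67 that was 0.33 (0.0403) as the average of its probe sets. Fgf8 was higher by 0.36 ± 0.13 (0.0434), a call lost without PSC 1, PSC 2, PSC 3, EB_PSC 1, EB_PSC 2, ESC 2 or ESC 3 (0.0529 to 0.226) and under 5 other alternatives, one of them the demand for a difference of at least 1, in a range of 0.0172 to 0.226. On 1420847_a_at Fgfr2 differed by 0.45 ± 0.18 (0.0766) and passed with array weights (0.0233), without PSC 1 (0.048) and without ESC 2 (0.0417), in a range of 0.0233 to 0.394. For Fgf10, Fgfr1, Fgfr3 and Fgfr4 no probe set passed. Fgf15, lower here, had differed by -0.09 between EB_PSC and PSC and by -0.51 between PSC and ESC.

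Over the 8 arrays the pathway genes whose profile was most like that of Fgf5 were Flrt3 (Pearson's r = 0.995), Hs6st2 (0.986) and Pik3r1 (0.983). For Fgf4 they were Gab1 (0.992), Map2k1 (0.985) and Fos (0.972), and for Fgfr2 Fgf11 (0.955), Hs2st1 (0.937) and Pik3r1 (0.885). Fgf11 was dim on every array, at 5.19 and 5.22 in EB_PSC, 5.02 to 5.09 in PSC and 5.08 to 5.11 in ESC, and passed the test in no comparison. The arrays fall into 3 groups of related culture, so these values mainly rank the genes by how alike their group levels are, and they are a description.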

How the data were processed

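The authors deposited RMA expression values in log2; RMA is named by the submitters' processing notes, while its version, and whether all arrays were normalized jointly, is not given in the sources used here. All 45101 probe sets and 8 value columns were read, the columns through their sample names. The values, from 2.56 to 14.9, show the log2 scale. The 64 control probe sets were left out. Names came from the platform annotation, and for all 22 members the identifier gives the same symbol in RefSeq (GRCm38.p6). Of 45037 probe sets 34945 name 1 gene and 932 several; only the first were named.

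limma 3.58.1 in R 4.3.3 fitted the 3 group means on all 8 arrays (5 residual and 7.21 prior degrees of freedom), two-sided, without the replicate number. Fold and interval come from this fit. Gene lists use the brightest probe set by mean over all arrays, which 90 of 98 pathway genes had; 8 were not analysed here. Named are all members, up to 3 called genes per pathway list, direction and comparison by size, and Fgf2, Dusp6, Etv5, Spry2 and Spry4; the glypican, marker and neighbouring genes named beside these were chosen after their values were seen. The members and lists were chosen with earlier results of these data known. The test was checked on simulated data. It found 16% of simulated differences of 0.5 log2 units for PSC against ESC and 6% for EB_PSC against PSC. For differences of 1 it found 82% and 70%. The simulation changed far fewer probe sets than the 15.6% and 34.5% that passed in the real comparisons. Its adjusted threshold was therefore stricter, and these shares do not give the sensitivity of the reported tests. Same-numbered arrays had correlations of deviations of -0.26 to 0.20. Deviations from means of 2 or 3 arrays constrain each other, so these values cannot decide whether the number pairs arrays. Alternatives were 2 further scalings, a dim filter, 1 probe set a gene or gene averages, other priors, array weights, each array left out, and a difference of at least 1. The number of arrays limits the precision. Figures used Python 3.11.15, pandas 2.3.3 and Matplotlib 3.10.9.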

Additional observations from a re-analysis of the deposited data

How the results depend on the processing

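No change of direction touched an FGF or receptor call. For 2 pathway genes the difference between PSC and ESC was lost in the average of their probe sets. These were Sdc4 (0.00 ± 0.10, limma adjusted p = 0.996) and Sulf2 (-0.02 ± 0.10, 0.921). For the member probe sets higher in PSC than ESC (3), the count was 1 with 1 probe set a gene, 0 with gene averages, 1 with array weights and 0 for differences of at least 1, and 0 to 3 with an array left out. For those lower in PSC (2) it was 0 for differences of at least 1 and 0 to 3 with an array left out. For those higher in EB_PSC than PSC (5) it was 2 with the dim filter, 3 with 1 probe set a gene, 3 with gene averages, 2 for differences of at least 1 and 4 to 5 with an array left out. For those lower (6) it was 1 with 1 probe set a gene, 2 with gene averages, 2 for differences of at least 1 and 4 to 6. For EB_PSC over ESC (4) it was 2 with the dim filter, 1 for differences of at least 1 and 2 to 4, and for EB_PSC under ESC (5) it was 2 with 1 probe set a gene, 2 with gene averages, 2 for differences of at least 1 and 3 to 5. Counts per gene hold 9 genes in place of 22 probe sets. Pathway genes in PSC against ESC were 7 to 10 higher and 14 to 19 lower with an array left out, and 2 and 7 for differences of at least 1. In EB_PSC against PSC they were 28 to 33 higher and 12 to 17 lower, with 6 lower for differences of at least 1. With the replicate number as a block the member counts were 2 higher and 2 lower in PSC than ESC and 5 higher and 5 lower in EB_PSC than PSC. Against ESC, EB_PSC then had 3 higher and 5 lower. Pathway counts under the block were 9 and 17 for PSC against ESC and 29 and 14 for EB_PSC against PSC. Over all probe sets, EB_PSC against PSC had 7031 higher and 8500 lower, or 8591 and 6461 with cyclic loess, and EB_PSC against ESC 7384 and 8770, or 9020 and 6941. Leaving out an embryoid body array leaves 1, which is assumed to vary like the other groups. Dim signal limits Fgf8, Fgf10 and, outside embryoid bodies, Fgf5. The causes of these changes were not tested.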

Other observations

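Fgf4 and Fgf15 are direct neighbours on chromosome 7 in RefSeq, with 0 protein-coding genes between them, next to Fgf3 on one side and close to the cyclin gene Ccnd1 on the other. Neighbours did not move alike between EB_PSC and PSC. Fgf4 fell by 2.85 log2 units, Fgf15 differed by -0.09 and dim Fgf3 by -0.21, neither past the limma test, and Ccnd1 rose by 0.51 ± 0.13 (adjusted p = 0.009). Between PSC and ESC Fgf4 was 0.51 higher while Fgf15 differed by -0.51 and Ccnd1 by -0.52 ± 0.12 (0.00999).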
